A study of Mus musculus with 25 samples.

Results

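Transporters that clear neurotransmitters from the synapse, load them into vesicles or carry amino acids across membranes were examined for trimethylation of histone H3 at lysine 27 (H3K27me3). Polycomb repressive complex 2 (PRC2) writes this mark, which is found at silenced genes. The genes were all 39 autosomal mouse protein-coding genes whose symbol begins with Slc1a, Slc6a, Slc17a, Slc18a or Slc32a, out of 20665 autosomal protein-coding genes. They comprised 7 Slc1a, 19 Slc6a, 9 Slc17a and 3 Slc18a genes and Slc32a1. A further 2 genes with such symbols, Slc6a8 and Slc6a14, lie on the X chromosome and were left out. The members were taken by symbol and not by any measured value, but this choice was made with earlier results of these data known.

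The study profiled H3K27me3 in neural progenitor cells grown from embryonic stem cells (NPC), by CUT&RUN, and in lines A and B of mouse embryonic fibroblasts (MEF) immortalized with c-myc, by ChIP-seq. The NPC libraries were 2 of cells given UNC1999 (2 uM) and A395 (4 uM), both of which inhibit PRC2, 2 after washout of both compounds and 2 of untreated cells, all of them wild type. For line A there were 2 libraries each of Ezh2 -/- cells, of Ezh2 -/- cells with Ezh2 returned by the retrovirus pMSCV-Ezh2, and of wild-type cells. For line B there were 2 each of cells with a reversible Ezh2 -/- genotype, of cells rescued at the endogenous gene, and of wild-type cells. Ezh2 is the methyltransferase of PRC2. The deposited peaks form 3 lists, 1 per cell system, with positions and no heights, so depth is unknown and the values below have no replicate error. The MEF lists are named after the wild-type and the Ezh2 -/- libraries of their line together, and the NPC list after no treatment. Which libraries each was called on was not given in the sources used here. Ezh2 loss, inhibition and recovery were therefore not compared. No test between lists was possible, since each list stands as a single sample, and between NPC and MEF the assay and the cell type cannot be told apart.

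Glutamate, GABA, glycine, the monoamines and acetylcholine are packed into vesicles by the Slc17a, Slc18a and Slc32a proteins, and their action ends when plasma membrane carriers of the Slc1a and Slc6a families take them back up or an enzyme degrades them. Which vesicular carrier a neuron makes marks its transmitter identity, while astrocytes and radial glia carry much of the glutamate uptake of the brain. Other members of the same families serve the kidney, the gut and the liver, where they take up amino acids or move organic anions and phosphate.

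For each gene, the length covered by peaks was taken over the gene record and 5 kb on either side, called the window here. A gene with at least 1 bp of peak in its window was counted as having a peak, and a gene with at least 50% of the window covered was counted as broadly covered. At cell type marker genes the NPC list had little coverage of progenitor genes, and the MEF lists little of fibroblast genes. In NPC, 1 of 6 neural progenitor marker genes had a peak (Msi1, 8.49% of its window), while Nes, Sox1, Sox2, Pax6 and Fabp7 had 0 bp. Of the same 6 genes, line A covered 5 and line B 6 with at least 1 bp. Of 6 fibroblast marker genes, Pdgfrb was covered over 57.9% of its window in NPC, Col1a1 over 3.33% in line A, and Col1a2, Col3a1, Thy1 and Twist1 had 0 bp in each list. Of 5 neuron marker genes 3 had a peak in NPC, 4 in line A and 3 in line B. Of 4 astrocyte marker genes, 1 had a peak in NPC, 2 in line A and 2 in line B. The NPC list held 44807 peaks over 136.9 Mb, the line A list 86235 over 276.2 Mb and the line B list 81972 over 235.7 Mb.

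Most of the transporter genes carried H3K27me3 in at least 1 list, and the coverage was often broad. In NPC, 26 of the 39 genes had a peak, where the background over all autosomal protein-coding genes was 31.9%. In line A there were 32, against a background of 40.2%, and in line B 31, against 40.9%. Broad coverage was found for 9 transporter genes in NPC (23.1%, where 3.91% of all genes reached it), 14 in line A (35.9%, background 9.98%) and 15 in line B (38.5%, background 9.71%). The median gene was covered over 8.93% of its window in NPC, 33.5% in line A and 34.7% in line B, while the median over all genes was 0% in each list. The transporter windows were longer (median 44.9 kb, against 27.5 kb for all genes). The background was also taken among the 16475 genes with windows no shorter than the shortest and no longer than the longest transporter window (12.4 to 142.5 kb). There it was 30.4% for a peak and 3.7% for broad coverage in NPC, 41.0% and 10.2% in line A, and 41.2% and 9.78% in line B. This range bounds the windows but does not match their lengths, so the part of window length was not tested.

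**Figure D1:**
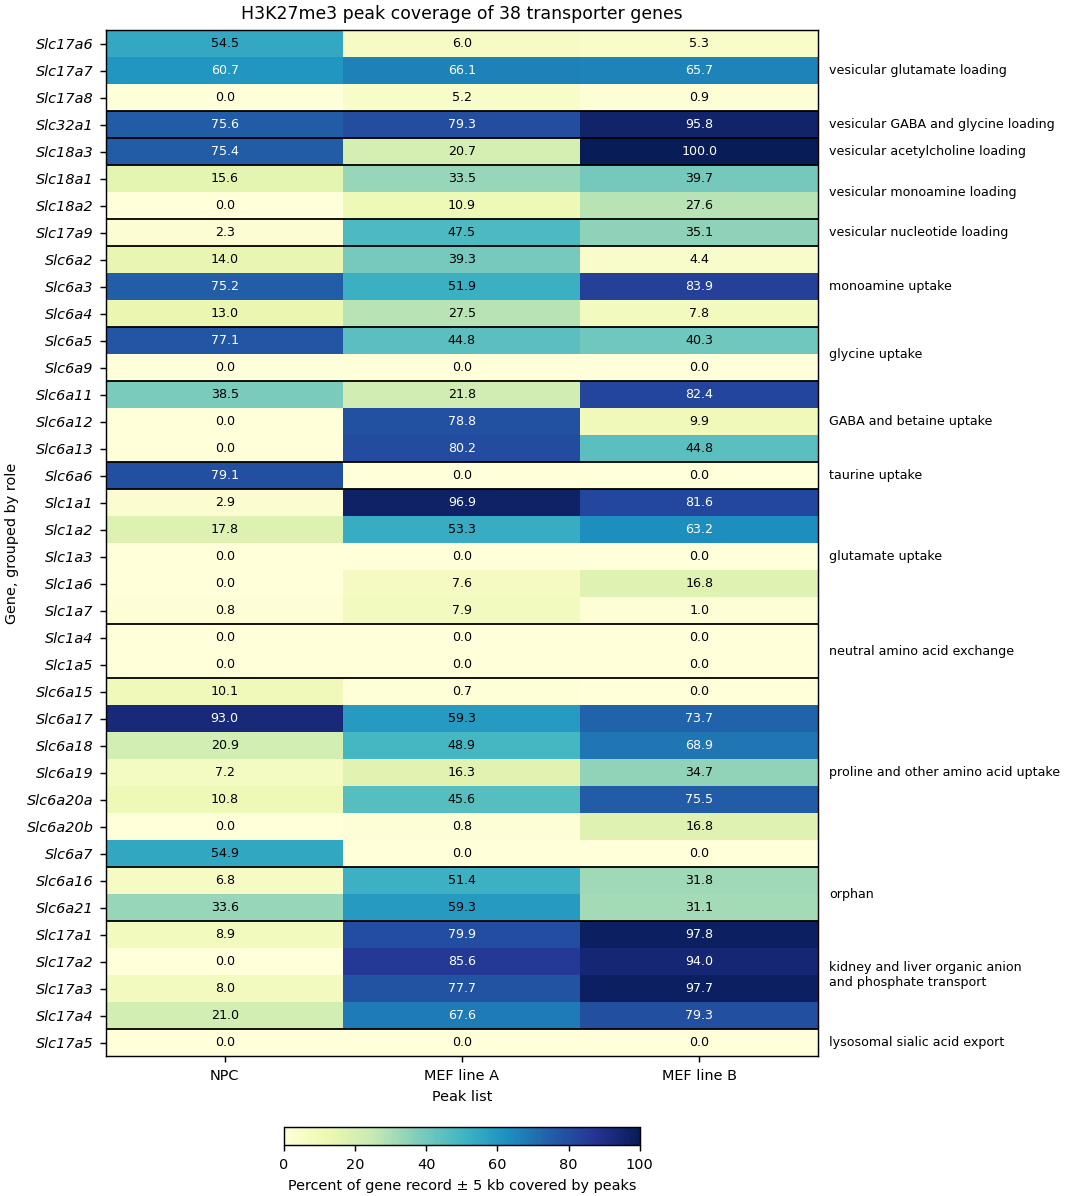
Percent of each window (gene record and 5 kb on either side) covered by H3K27me3 peaks in the NPC, line A and line B lists, for 38 of the genes in rows grouped by role; darker cells are covered more. Slc32a1, Slc17a7, Slc6a3 and Slc6a17 are above 50% in each column, and Slc1a3, Slc1a4, Slc1a5, Slc6a9 and Slc17a5 are at 0 throughout.

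By presence of a peak the genes fell into 5 patterns. A peak in all 3 lists was found at 23 genes (59.0%, background 19.5%), and 8 genes had a peak in both MEF lines and none in NPC (background 12.5%). The count in all 3 lists was 10 genes within 2 kb of a start (background 9.33%) and 13 genes with at least 10% of the window covered (background 8.39%). Slc6a6 and Slc6a7 had a peak in NPC alone (background 5.97%), and Slc6a15 in NPC and line A. No peak stood in any list at 5 genes (12.8%), where 44.8% of all genes had none. Broad coverage in each of the 3 lists was reached by Slc17a7, Slc32a1, Slc6a3 and Slc6a17 (4 genes, background 1.39%), and 10 genes reached it in both MEF lines (background 5.91%). Neighbouring members share windows in 5 places. With overlapping windows counted once the counts with a peak became 22, 26 and 25 of 33 in NPC, line A and line B. The windows of all genes were not merged in this way, so these counts have no background.

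The bases just before the transcription start were read from RefSeq (assembly GRCm38.p6), where 29 of the 39 genes had at least 1 entry. Shown are 250 bases upstream of the outermost start with an entry, with each CG dinucleotide in capitals, since unmethylated CG-rich sequence is a common landing site of PRC2. The entry of Slc32a1 lies inside the gene record. The first 3 stood inside a peak in each list, Slc18a3 in NPC and line B, Slc6a4 in NPC and line A, and Slc1a4 and Slc1a3 in no list.
Slc32a1 (chr2:158610508-158610757, plus strand): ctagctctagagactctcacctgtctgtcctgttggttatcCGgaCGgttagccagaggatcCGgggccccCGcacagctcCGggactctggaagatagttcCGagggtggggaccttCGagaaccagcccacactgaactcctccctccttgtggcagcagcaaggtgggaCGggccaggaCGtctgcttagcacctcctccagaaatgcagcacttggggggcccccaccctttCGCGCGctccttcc
Slc17a7 (chr7:45163671-45163920, plus strand): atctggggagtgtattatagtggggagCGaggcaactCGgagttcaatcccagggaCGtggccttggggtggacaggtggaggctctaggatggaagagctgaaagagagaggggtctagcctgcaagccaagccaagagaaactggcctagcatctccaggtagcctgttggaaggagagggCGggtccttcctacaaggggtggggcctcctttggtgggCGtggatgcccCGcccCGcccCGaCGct
Slc6a17 (chr3:107518019-107518268, minus strand): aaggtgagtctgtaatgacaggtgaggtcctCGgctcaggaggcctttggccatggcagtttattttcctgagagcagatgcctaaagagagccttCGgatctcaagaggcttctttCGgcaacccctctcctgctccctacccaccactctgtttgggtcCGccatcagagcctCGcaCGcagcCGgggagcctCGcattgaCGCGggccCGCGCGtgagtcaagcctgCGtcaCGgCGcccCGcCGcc
Slc18a3 (chr14:32464851-32465100, minus strand): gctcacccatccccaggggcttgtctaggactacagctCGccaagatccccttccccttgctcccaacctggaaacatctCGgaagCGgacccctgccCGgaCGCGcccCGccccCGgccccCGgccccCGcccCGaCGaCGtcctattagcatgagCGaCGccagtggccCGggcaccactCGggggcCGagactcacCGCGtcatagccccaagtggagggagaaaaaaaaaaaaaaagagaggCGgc
Slc6a4 (chr11:76998347-76998596, plus strand): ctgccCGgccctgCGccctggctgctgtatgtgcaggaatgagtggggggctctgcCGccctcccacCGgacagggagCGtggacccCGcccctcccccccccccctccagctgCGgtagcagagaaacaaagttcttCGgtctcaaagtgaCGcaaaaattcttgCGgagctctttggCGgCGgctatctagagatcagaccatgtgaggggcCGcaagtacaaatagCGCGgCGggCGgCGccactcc
Slc1a4 (chr11:20332714-20332963, minus strand): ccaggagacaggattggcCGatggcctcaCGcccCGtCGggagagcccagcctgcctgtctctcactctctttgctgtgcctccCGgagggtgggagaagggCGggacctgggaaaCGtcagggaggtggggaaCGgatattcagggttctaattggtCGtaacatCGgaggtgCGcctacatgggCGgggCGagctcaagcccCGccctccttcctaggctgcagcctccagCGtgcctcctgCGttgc
Slc1a3 (chr15:8710808-8711057, minus strand): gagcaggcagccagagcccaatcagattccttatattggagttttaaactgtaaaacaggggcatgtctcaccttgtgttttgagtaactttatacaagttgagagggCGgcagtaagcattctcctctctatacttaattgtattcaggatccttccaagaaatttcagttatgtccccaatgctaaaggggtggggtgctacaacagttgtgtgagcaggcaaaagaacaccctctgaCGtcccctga

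The CG count did not sort these sequences by peak. Slc6a17 holds 18 CG, Slc32a1 12 and Slc17a7 9, with 21 at Slc18a3 and 18 at Slc6a4, while Slc1a4, without a peak, holds 16 and Slc1a3 2. A CG reads the same on both strands and was counted once. As many as 9 CG are found in 54.1% of all 20085 autosomal promoter entries of the same length, 16 in 35.2%, and 2 in 85.4%. Over the 42 entries of the transporter genes, the median CG count was 11.5 for the 12 that met an NPC peak and 5.0 for the others. In line A the median was 6.5 for the 22 that met a peak and 6.5 for the others, and in line B it was 9.0 for 21 entries and 4.0 for the others. Over all promoter entries the medians inside and outside peaks were 10.0 and 10.0 in NPC, 6.0 and 11.0 in line A, and 7.0 and 11.0 in line B. Some genes have several entries, which overlap at Slc6a12 and are not independent.

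Among the vesicular carriers, Slc32a1, Slc18a3, Slc17a6 and Slc17a7 were broadly covered in NPC, and together they mark GABA and glycine, acetylcholine and glutamate neurons. Slc32a1 (chromosome 2, 158607260 to 158615747), which loads GABA and glycine into vesicles, was covered over 14.0 kb of its 18.5 kb window in NPC (75.6%), 14.7 kb in line A (79.3%) and 17.7 kb in line B (95.8%). Its start lay in a peak in each list, and all the length covered in line A was also covered in line B. Slc17a7 (chromosome 7, 45163921 to 45176139), a vesicular glutamate carrier of cortex and hippocampus, was covered over 60.7% in NPC, 66.1% in line A and 65.7% in line B. The MEF lines shared nearly the same stretch there (98.4% of the length of line A, 98.9% of line B), and the wider of the 2 peaks in each list reached past the end of the record over a part of the window that also holds Gfy and Pth2.

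Slc17a6 (chromosome 7, 51621830 to 51671126), the vesicular glutamate carrier of thalamus, brainstem and spinal cord, had far more covered in NPC than in either MEF line. It was covered over 32.3 kb in 5 peaks in NPC (54.5%), and over a single peak near the start in each MEF line, of 3.58 kb in line A (6.04%) and 3.11 kb in line B (5.25%). The widest NPC peak spanned 17.97 kb (chr7:51618171-51636143) and contained both MEF peaks. Slc17a8, the vesicular glutamate carrier of inner hair cells and some interneurons, had 0 kb in NPC, 2.98 kb in line A in 6 narrow peaks and 0.532 kb in line B.

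Slc18a3 (chromosome 14, 32462437 to 32464850) loads acetylcholine into vesicles and lies within the locus of Chat, the enzyme that makes acetylcholine. A single NPC peak of 12.9 kb (chr14:32453936-32466797) covered 75.4% of its window, a line A peak of 2.57 kb covered 20.7% downstream of the gene, and a line B peak of 19.4 kb covered the whole window. The start was thus inside a peak in NPC and line B and outside in line A. Chat itself was covered over 38.2% in NPC, 57.2% in line A and 94.1% in line B. The windows of both genes overlap. Of the vesicular monoamine carriers, Slc18a2, used by dopamine, noradrenaline and serotonin neurons, had 0 kb in NPC, 4.94 kb in line A and 12.4 kb in line B. The single line A peak ended before the record of Slc18a2, of which 0% was covered in line A and 21.2% in line B. Slc18a1, used in chromaffin and other neuroendocrine cells, was covered over 15.6% in NPC, 33.5% in line A and 39.7% in line B, with both ends of the record free of peaks for 2 kb around. Slc17a9, which loads nucleotides into vesicles, was covered over 2.32% in NPC, 47.5% in line A and 35.1% in line B.

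**Figure D2:**
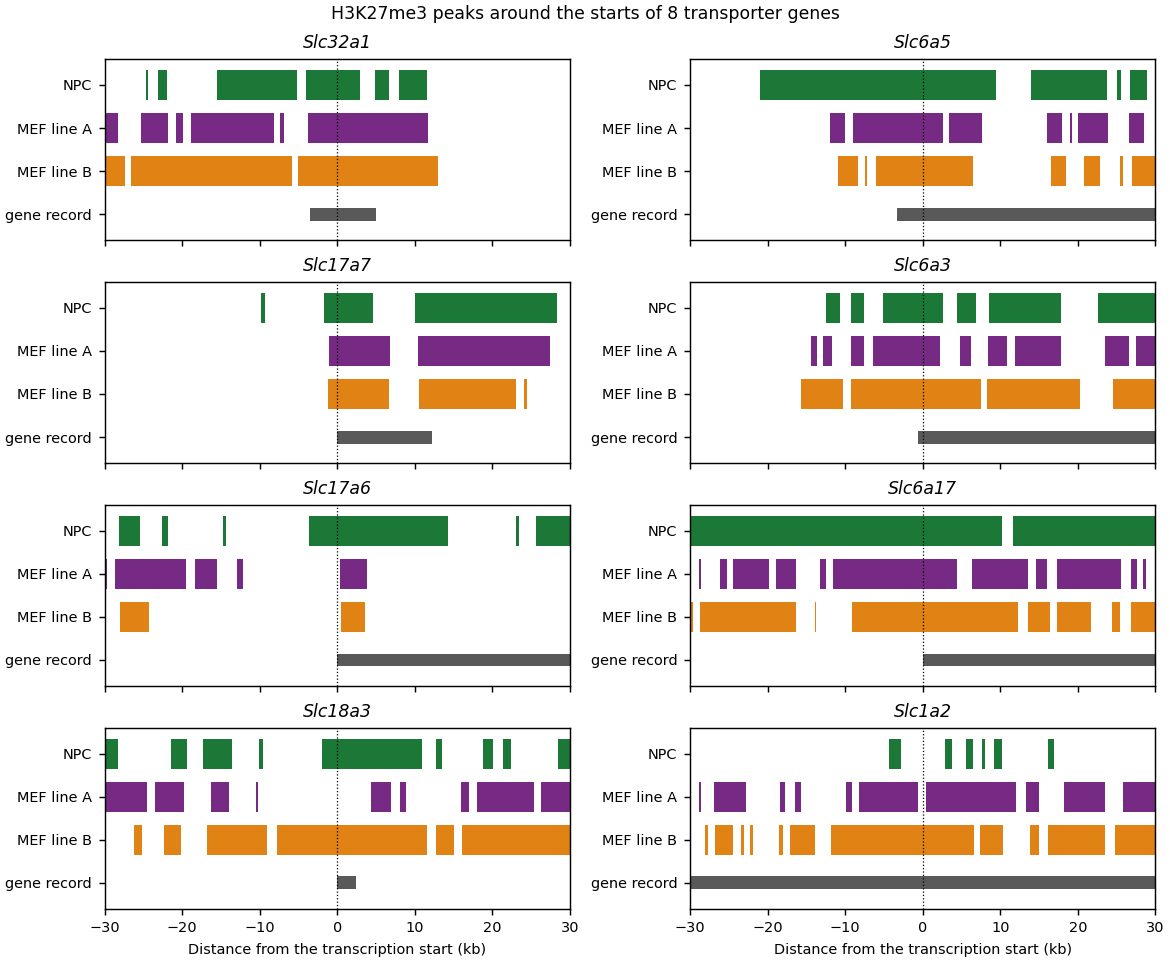
H3K27me3 peaks (bars) of the NPC, line A and line B lists within 30 kb of the transcription start of 8 transporter genes, with distance in kb from the outermost start with a RefSeq entry (dotted line), genes oriented left to right and the gene record in grey. At Slc17a6 the NPC bar spans 17.97 kb over the start, where the MEF bars span 3.58 and 3.11 kb, and at Slc18a3 the start is bare in line A.

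All 3 monoamine uptake genes had a peak in each list, at different breadth. Slc6a3 (chromosome 13, 73536128 to 73578672), the dopamine transporter, was covered over 39.5 kb of its 52.5 kb window in NPC (75.2%), 27.3 kb in line A (51.9%) and 44.1 kb in line B (83.9%). Slc6a2, the noradrenaline transporter, was covered over 14.0% in NPC, 39.3% in line A and 4.38% in line B. Slc6a4, the serotonin transporter, was covered over 13.0%, 27.5% and 7.82% in NPC, line A and line B. Both Slc6a2 and Slc6a4 thus had more covered length in line A than in line B, and Slc6a3 had less. Within the record of Slc6a2 alone, 9.46% was covered in NPC, 30.9% in line A and 0% in line B, whose single peak lay beyond an end of the record.

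The glycine carriers stood at opposite ends. Slc6a5 (chromosome 7, 49906984 to 49963864), which refills glycine neurons with their transmitter, was covered over 51.6 kb in NPC (77.1%), 29.97 kb in line A (44.8%) and 26.98 kb in line B (40.3%). The widest NPC peak there spanned 30.5 kb (chr7:49889267-49919812), against 11.6 kb in line A and 12.5 kb in line B. Slc6a9, the glycine carrier of glia and of many tissues, had 0 bp in each list over a window of 44.0 kb.

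The members on chromosome 7 need a further value beside them, because the NPC list had more peaks on this chromosome than on any other and the line B list the fewest. It held 6012 of the peaks in NPC (21.6 Mb), 4920 in line A (15.1 Mb) and 2535 in line B (5.15 Mb). A peak was found in NPC at 47.2% of all chromosome 7 genes and 30.2% of the other genes, in line A at 34.5% and 40.9%, and in line B at 24.8% and 42.7%. Broad coverage was found in NPC at 9.36% of all chromosome 7 genes and 3.31% of the other genes, in line A at 6.06% and 10.4%, and in line B at 2.32% and 10.5%. Slc17a6, Slc17a7 and Slc6a5 are 3 of the 9 genes with broad coverage in NPC and 3 of the 6 transporter genes on chromosome 7. Without that chromosome, 6 of 33 genes had broad coverage in NPC, 11 in line A and 14 in line B. The part of the chromosome in these values was not tested.

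The GABA carriers described here had peaks in both MEF lines, with different genes covered most in each line. Slc6a11, the GABA carrier of astrocytes, was covered over 49.5 kb in NPC (38.5%), 28.0 kb in line A (21.8%) and 106.0 kb in line B (82.4%). Of its line A length, 97.6% was also covered in line B. Slc6a12, which carries betaine as well as GABA, and its neighbour Slc6a13, a GABA and taurine carrier of liver, kidney and meninges, showed the opposite order. Slc6a12 had 0 kb in NPC, 26.1 kb in line A (78.8%) and 3.28 kb in line B (9.87%). Slc6a13 had 0 kb in NPC, 38.03 kb in line A (80.2%) and 21.3 kb in line B (44.8%). Their windows overlap and are not independent.

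Of the 5 glutamate uptake genes, Slc1a1 and Slc1a2 were broadly covered in both MEF lines, Slc1a6 and Slc1a7 were covered over less of their windows, and Slc1a3 had no peak in any list. Slc1a1 (chromosome 19, 28835135 to 28913960), the neuronal and epithelial glutamate carrier, was covered over 2.56 kb in NPC (2.89%), 86.1 kb in line A (96.9%) and 72.4 kb in line B (81.6%). Line A had 2 peaks in the window, the wider of 110.0 kb and reaching past it (chr19:28780063-28890029), while line B had 11, the widest of 27.4 kb. Slc1a2, the main carrier of mature astrocytes and the longest of the windows (142.5 kb), was covered over 17.8% in NPC, 53.3% in line A and 63.2% in line B, in 10, 19 and 21 peaks. The widest NPC peak, of 10.9 kb (chr2:102651260-102662205), lay over the outer start of the record. The RefSeq promoter entry is of an inner start (102706438), and within 2 kb of it NPC had 0 bp, line A 2927 bp and line B 4001 bp covered. Slc1a3 (chromosome 15, 8634124 to 8710807), the glutamate carrier of radial glia and astrocytes, had 0 bp in each list over 86.7 kb. Slc1a6, a carrier of Purkinje cells, had 0 kb in NPC, 3.40 kb in line A and 7.52 kb in line B. Slc1a7, of the retina, had 0.46 kb in NPC, 4.34 kb in line A and 0.564 kb in line B.

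Both neutral amino acid exchangers of the Slc1a family were without a peak. Slc1a4 and Slc1a5, which exchange alanine, serine, cysteine and, for Slc1a5, glutamine, had 0 bp in each list, as had Slc17a5, which exports sialic acid from lysosomes. Together with Slc1a3 and Slc6a9 these were the 5 genes without a peak. With windows of 10 kb on either side 3 genes remained without a peak, and the share of all genes was not taken at that setting.

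Among the 7 Slc6a genes for proline and other amino acids, the carrier of synaptic vesicles was covered most in NPC. Slc6a17 (chromosome 3, 107467548 to 107518018), a vesicular carrier of neutral amino acids in neurons, was covered over 56.3 kb of 60.5 kb in NPC (93.0%), 35.9 kb in line A (59.3%) and 44.5 kb in line B (73.7%). The NPC list had 3 peaks in this window, the widest of 51.6 kb (chr3:107507770-107559363), against 10 in line A and 9 in line B. Slc6a7, the proline carrier of glutamate synapses, was covered over 15.95 kb in NPC (54.9%) and over 0 kb in both MEF lines. The single NPC peak there (chr18:61003465-61019727) lay across an end of the record, and the window also holds part of Cdx1, a homeobox gene of the gut. Slc6a15, a neuronal carrier of branched-chain amino acids and proline, had 6.23 kb in NPC, 0.43 kb in line A and 0 kb in line B.

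The kidney and gut carriers of this group had more coverage in both MEF lines than in NPC. Slc6a18 was covered over 20.9% in NPC, 48.9% in line A and 68.9% in line B. The values for its neighbour Slc6a19 were 7.17% in NPC, 16.3% in line A and 34.7% in line B. Within the record of Slc6a19 alone, 0% was covered in NPC, 7.31% in line A and 18.8% in line B. The windows of Slc6a18 and Slc6a19 overlap and are not independent. Slc6a20a was covered over 10.8% in NPC, 45.6% in line A and 75.5% in line B. Its near copy Slc6a20b, whose window overlaps that of Slc6a20a, was covered over 0% in NPC, 0.782% in line A and 16.8% in line B. Reads from near copies can be hard to place, and their handling was not given in the sources used here. Of the orphan carriers, Slc6a16 was covered over 6.79% in NPC, 51.4% in line A and 31.8% in line B. Slc6a21 had 33.6% covered in NPC, 59.3% in line A and 31.1% in line B.

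Slc6a6 (chromosome 6, 91684048 to 91759063), the taurine carrier, had the largest excess of NPC over both MEF lines among the 39 genes. It was covered over 67.3 kb in 5 peaks in NPC (79.1%), the widest of 35.3 kb (chr6:91710191-91745528), and over 0 kb in both MEF lines. Its window also holds part of Grip2. Slc6a5, Slc6a6, Slc6a7 and Slc17a6 were the 4 genes with broad coverage in NPC and in neither MEF line (background 1.42%). Of these, Slc6a5 and Slc17a6 lie on chromosome 7. Broad coverage there was more frequent in NPC (9.36% of its genes, 3.31% of the others) and less in line B (2.32% and 10.5%). The share of chromosome 7 genes with this pattern was not taken.

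The phosphate and organic anion carriers of kidney and liver, Slc17a1, Slc17a2, Slc17a3 and Slc17a4, were all broadly covered in both MEF lines. They lie side by side on chromosome 13 between 23806941 and 23915009. In NPC they were covered over between 0% (Slc17a2) and 21.0% (Slc17a4), in line A over between 67.6% (Slc17a4) and 85.6% (Slc17a2), and in line B over between 79.3% (Slc17a4) and 97.8% (Slc17a1). A single line B peak of 44.0 kb (chr13:23820996-23864947) reached from Slc17a2 across Slc17a3, and the next of 45.8 kb (chr13:23865777-23911620) across Slc17a1 and into Slc17a4. In line A the widest peaks of the group spanned 22.9 and 21.2 kb. These 4 neighbouring genes account for 4 of the 14 broadly covered genes in line A and 4 of the 15 in line B.

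Set side by side, NPC had less of the window covered than both MEF lines at 22 of the 39 genes (56.4%, all genes 23.5%). It had more than both at 6 (15.4%, all genes 13.2%). Genes without a peak in any list could stand neither way, and they were 44.8% of all genes and 12.8% of the 39. These shares therefore also hold the presence of a peak. Among all genes, 4866 stood below both MEF lines and 2720 above both. Line A had more than line B at 14 of the 39 genes and less at 18, where over all 20665 genes it had more at 4918 and less at 5168. The MEF lines lay more than 30 percentage points apart at 7 genes (17.9%, all genes 8.75%). Among them were Slc6a12, Slc6a13 and Slc6a2 with more in line A and Slc18a3, Slc6a11 and Slc6a3 with more in line B. Genes without a MEF peak could not differ so. Of all genes 44.8% had no peak and 5.97% a peak in NPC alone, against 5 and 2 of the 39. The shares of 17.9% and 8.75% therefore also hold the presence of a MEF peak. Of the length covered in line A over the 39 windows, 76.1% was also covered in line B, and over the windows of all genes 48.8%. Of the length covered in line B, 64.1% was also covered in line A, against 57.2% for all genes. Of the NPC length, 47.0% was covered in line A as well and 57.2% in line B, against 44.8% and 37.0% for all genes. Windows that overlap are counted for each of their genes in these sums.

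**Figure D3:**
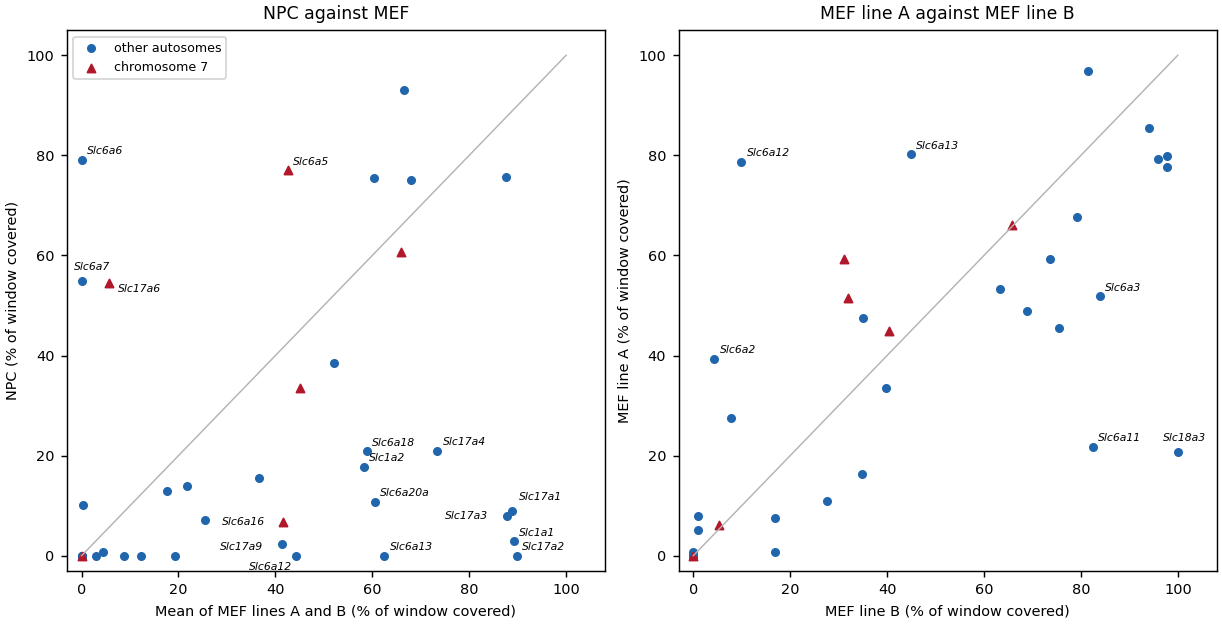
Percent of the window covered for 38 of the genes, NPC against the mean of the MEF lines (left) and line A against line B (right), with the line of equal coverage; triangles are genes of chromosome 7, and genes more than 30 percentage points apart are named. Slc6a6 (79.1% in NPC) and Slc6a7 (54.9%) lie on the left edge with 0% in MEF, and 6 genes are named on the right.

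Other genes of transmitter handling less often reached broad coverage. Of 28 genes for enzymes that make or break down transmitters and their amino acid precursors, 13 had a peak in NPC, 17 in line A and 20 in line B. Broadly covered were 2 in NPC, 5 in line A and 6 in line B. Those 2 in NPC were Dbh, which makes noradrenaline (92.5% in NPC, 94.3% in line A, 65.5% in line B), and Th, the first enzyme of catecholamine synthesis (80.8%, 63.1% and 9.50%). Gad1, which makes GABA, was covered over 8.66% in NPC, 89.5% in line A and 78.0% in line B, while Slc32a1, which packs GABA, was covered over 75.6% in NPC. Gad2 was covered over 7.59% in NPC, 13.8% in line A and 17.2% in line B. Ddc, which makes dopamine and serotonin, was covered over 34.6% in NPC and 0% in both MEF lines. Slc5a7, the choline carrier of cholinergic neurons, was covered over 16.3% in NPC and 0% in both MEF lines.

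Of 46 genes for glutamate, GABA and glycine receptor subunits, 38 had a peak in NPC, 29 in line A and 35 in line B, in windows with a median of 170.4 kb. Broad coverage was found there for 1 gene in NPC (2.17%), 6 in line A (13.0%) and 10 in line B (21.7%). The NPC gene was Grin1, an NMDA receptor subunit (78.6% in NPC, 75.5% in line A, 89.4% in line B), named after its values were seen. Of 45 other carriers of amino acids and amines, 18 had a peak in NPC, 25 in line A and 27 in line B. Broadly covered were 1 in NPC (Slc22a3, a low-affinity carrier of monoamines), 10 in line A and 7 in line B. Of the 323 Slc genes outside the 39, 7 were broadly covered in NPC (2.17%), 52 in line A (16.1%) and 37 in line B (11.5%). The transporter genes stood above each of these sets in broad coverage in each list, as counts without a test. For a peak in NPC the receptor genes stood above them (82.6% against 66.7%). In line A (63.0% against 82.1%) and line B (76.1% against 79.5%) the receptor genes stood below. Receptor windows were longer (median 170.4 kb, against 44.9 kb), and the part of window length in broad coverage was not tested.

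**Figure D4:**
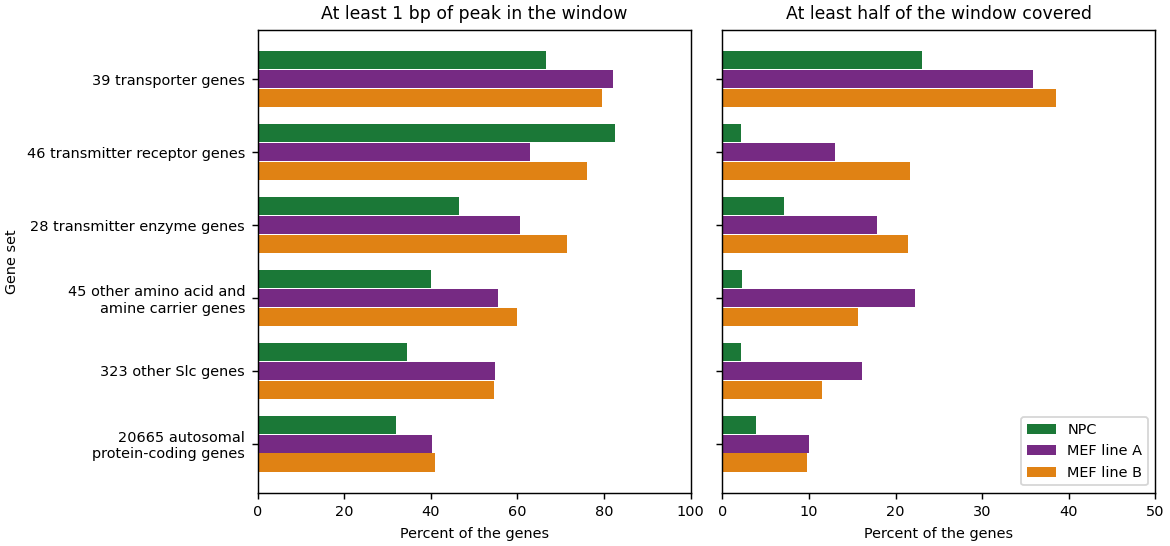
Percent of genes with at least 1 bp of peak in the window (left) and with at least 50% of the window covered (right) in the NPC, line A and line B lists, for the 39 transporter genes, 4 related sets and all 20665 genes. The transporter genes reach 23.1% in NPC, 35.9% in line A and 38.5% in line B on the right, and all genes 3.91%, 9.98% and 9.71%.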

How the data were processed

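The deposited files were 3 lists of H3K27me3 peaks with chromosome, start and end and no other column, so the authors' values are genome positions with no count, signal or score. They belong to the series as a whole, and the depth behind them is unknown. MACS2 (2.1.1.20160309), Bowtie2 (2.2.9), deepTools, Picard and DESeq2 are listed, without their roles, in the submitters' processing notes, beside builds dm6 and mm10. Peak threshold, control and pooling of libraries were not given in the sources used here.

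The 7 libraries for input, RNA polymerase II, H3K4me3 and H3K36me3 were not analysed here. Starts were read as 0-based and are printed 1-based. Gene records were the 20665 autosomal protein-coding ones of RefSeq, assembly GRCm38.p6. Strand and start came from RefSeq promoter entries, and for genes without an entry both ends of the record stood for the start. Covered length was computed in Python 3.11.15 with numpy 2.4.6 and pandas 2.3.3 over the record and 5 kb around it, and matched a base-by-base count in all 2000 simulated windows. No test was made, because each list is a single sample and genes are not replicates.

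The rule for naming took all members, every cell type marker, up to 4 genes of longest coverage per comparison list, and a set of transmitter genes (among them Chat, Gad1, Gad2, Th, Ddc, Dbh and Slc5a7). A member and an enzyme gene are counted but not reported by name here. The members and lists were chosen with earlier results of these data known. Roles were assigned by hand from textbook knowledge. The list of other carriers was taken by symbol and takes in Slc7a6os, whose symbol only shares the prefix. Alternatives changed the window, the minimum coverage and the peaks used.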

Additional observations from a re-analysis of the deposited data

How the results depend on the processing

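The lists hold positions only, so no replicate error, peak height or depth stands behind any value, and a gene without a peak is one not called at an unknown threshold. No paired analysis was possible because the peak lists carry no samples or replicate numbers. Counts were taken as changed where they moved by over 1.5 times. With 2 kb around the start in place of the window, 16 transporter genes had a peak in NPC (background 18.7%), 23 in line A (25.5%), 27 in line B (26.8%). A peak in all 3 lists was then found at 10 (9.33%). Of Slc1a genes 0 had one in NPC and 2 in line A, of Slc17a genes 3 in NPC, and of Slc18a genes 1 in NPC and 1 in line A. For Slc1a2 only the inner start with a RefSeq entry was used in these counts. The outer start of its record, which lies under an NPC peak, was left out. Among other Slc genes there were 62 in NPC, 111 in line A and 116 in line B, among other amino acid and amine carriers 16 in line A and 17 in line B. Among receptors there were 16 in line A and 23 in line B. With at least 10% of the window required, 13 transporter genes had a peak in all 3 lists (background 8.39%) and 4 in NPC alone. Slc1a genes then numbered 1 in NPC and 2 in line A, and Slc17a genes 3 in NPC. In NPC, line A and line B, other Slc genes numbered 53, 115 and 100, enzymes 7, 10 and 13, and receptors 14, 15 and 19. Other carriers numbered 9 in NPC and 15 in line B. With 10 kb on either side, 1 gene had a peak in NPC alone and 3 had none. Shares over all genes were not taken with 10 kb on either side. At the 10% minimum they were taken for a peak in all 3 lists only. No count recomputed under the other settings moved by over 1.5 times: peaks of at least 1 kb, peaks under 3 kb apart joined, the record alone, 2 kb on either side, the same number of widest peaks from each list, overlapping windows counted once, and, chosen after seeing the data, without chromosome 7.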
